A study of Mus musculus with 27 samples.

Results

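A/J is an inbred laboratory strain of Mus musculus, and its hepatocyte transcriptome was compared here with those of 8 other inbred strains. The A/J group held 3 of the 27 RNA-seq libraries of the series, chosen by their strain label. The other 24 were 3 libraries each of the classical strains C57BL/6J, 129S1/SvImJ, DBA/2J, NOD/ShiLtJ and NZO/HlLtJ and of the wild-derived strains WSB/EiJ, CAST/EiJ and PWK/PhJ. All libraries came from liver hepatocytes of female mice aged 12 weeks, with no treatment or engineered allele named in the labels. Histone marks and DNA methylation were surveyed in the same mice and are not analysed here. Libraries within a strain are labelled as biological replicates, without further detail on the animals.

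Hepatocytes make most of the proteins of blood plasma. They also break down amino acids, send the released nitrogen into the urea cycle, and modify drugs, steroids and bile acids through cytochrome P450 enzymes and conjugating enzymes. A/J carries long-known alleles at several loci, among them a frameshift in the complement C5 gene Hc and a retrotransposon insertion in the dysferlin gene Dysf.

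A/J was contrasted with the mean of the 8 other strain means, so that each strain weighed the same, and genes were called at an adjusted p under 0.05. Of 14482 genes tested, 3989 were called (27.5%), of which 2308 were higher in A/J (15.9% of genes tested) and 1681 were lower (11.6%). The median log2 change over all genes was 0.02. The split depended on how libraries were scaled: 57.9% of calls were higher with TMM factors, and 19.7% with plain library totals, which moved the median of all genes by -0.32. Changes below are relative to the TMM scale. A/J totals were 25667743, 23757481 and 35078511 estimated counts in replicates 1 to 3, and the other libraries held 17015956 to 32241670. A/J replicate 3 had the lowest TMM factor of all 27 libraries (0.722); without it 1973 genes were called, 1244 higher and 729 lower.

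Being away from the average of 8 strains does not make a gene particular to A/J, so stricter criteria were added. A gene was counted as set apart when it was called and all 3 A/J libraries lay above the highest, or below the lowest, of the other 24. This held for 106 higher genes (0.732%) and 117 lower genes (0.808%), and for 34 and 183 with library totals. By the test that A/J differs from each of the 8 strains in turn, 8 genes were higher (0.0552%) and 12 were lower (0.0829%). All 20 of these were also set apart. Leaving out 1 A/J library gave 3 or 4 higher and 7 lower genes, and 7 of the 20 passed whichever A/J library was left out, among them Slc28a1, Prpf40b, Nnmt, Iah1, Ube2u and Ccl27a. The 8 higher genes were Slc28a1, Lpl, Grk3, Prom2, Prpf40b, Trub1, Gpd2 and the pseudogene Gm13443. The lower genes included Nnmt, Iah1, Sult3a1, Akr1c19, Gls2, Qprt, Mbnl2, Acad9, Ube2u and Ccl27a. The same criterion in the other strains gave 238 higher and 135 lower set-apart genes in WSB/EiJ, 759 and 553 in CAST/EiJ, and 79 and 36 in DBA/2J.

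Among the higher genes, Slc28a1, which encodes a concentrative nucleoside transporter, had the widest gap to the next strain on the log2(CPM + 0.5) scale. It lies at chr7:81114799-81170416 on the plus strand (GRCm38, GENCODE release M21). Levels, given in CPM after TMM scaling, were 10.7, 26.7 and 17.03 in the A/J libraries. In the other 24 libraries they ran from 0.0325 to 0.958 with a median of 0.165, so the transcript was nearly absent outside A/J. The A/J mean of 18.1 ± 8.03 (SD, n = 3) was 32.6-fold that of the next strain, PWK/PhJ, at 0.556 ± 0.349. The log2 change against the 8 strains was 6.57 ± 0.27 (SE, adjusted p = 5.95e-15).

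Lpl, which encodes lipoprotein lipase, the enzyme that hydrolyses circulating triglyceride and is little expressed in adult hepatocytes, was at 76.2, 60.0 and 50.01 CPM in A/J. The other libraries ran from 1.69 to 22.2 with a median of 8.20. The groups did not overlap, and the A/J mean was 3.96-fold that of 129S1/SvImJ, the next strain. Grk3, a kinase that phosphorylates G protein-coupled receptors, was at 14.2, 21.8 and 19.8 CPM against 0 to 6.80. Prom2, which encodes the membrane protein prominin-2, was at 39.7, 63.6 and 56.6 CPM against a median of 0.564 and a highest value of 20.2. Its next strain was again 129S1/SvImJ, at 19.2 ± 1.28 (SD, n = 3).

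Further higher genes touched lipoprotein handling, cell death signalling and glycan processing. Sort1, encoding the sorting receptor sortilin that affects lipoprotein export from the liver, was at 56.2, 55.3 and 79.6 CPM against 0.414 to 35.1. Tnfsf10, the gene of the death ligand TRAIL, was at 39.0, 74.3 and 61.1 CPM against 2.42 to 38.8, so the lowest A/J library lay just above the highest other one. Man2a2, a Golgi mannosidase, reached 105 ± 26.6 CPM (SD, n = 3) against 60.8 ± 8.28 in WSB/EiJ. Nlrp12, which encodes an innate immune sensor protein, was at 16.4 to 24.3 CPM in A/J and at means of 12.1 in C57BL/6J and 11.8 in NOD/ShiLtJ, while the median of the other libraries was 0.358. Prpf40b, Trub1 and Klhdc8b completed the low-abundance genes, with A/J means of 18.0, 16.7 and 15.0 CPM that were 2.02-, 1.85- and 1.76-fold those of their next strains. Sort1, Tnfsf10, Man2a2, Nlrp12 and Klhdc8b did not pass the test against each of the 8 strains.

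**Figure D1:**
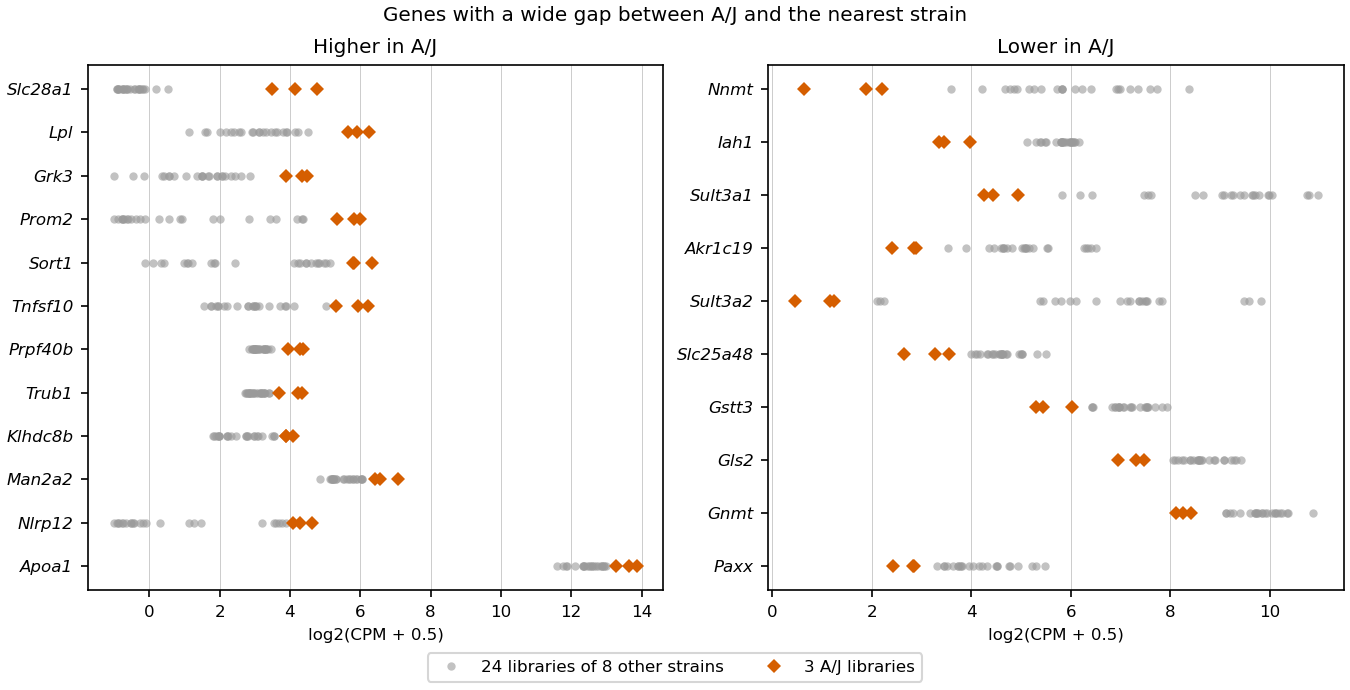
Expression on the log2(CPM + 0.5) scale of 12 higher (left) and 10 lower (right) set-apart genes with a wide gap between A/J and the nearest strain, ordered by that gap. Each diamond is an A/J library and each grey point a library of another strain; the 3 diamonds lie outside the range of the 24 grey points in every row.

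Among the lower genes, Nnmt had the widest gap to the next strain on the log2(CPM + 0.5) scale; as a ratio of CPM means, the scarcer Ccl27a lay further away (7.28-fold), and Ube2u, with no counts in A/J, has a bound only. It encodes nicotinamide N-methyltransferase, which uses S-adenosylmethionine to methylate nicotinamide, and lies at chr9:48591877-48605153 on the minus strand. The A/J libraries were at 1.05, 3.18 and 4.15 CPM. The other 24 ran from 11.5 to 330 with a median of 55.8, so even the lowest of them exceeded every A/J library. The log2 change was -4.54 ± 0.43 (SE, adjusted p = 2.31e-08), and the mean of 129S1/SvImJ, the next strain, was 6.92-fold that of A/J.

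The neighbouring sulfotransferase genes Sult3a1 and Sult3a2, which are female-biased in mouse liver, were both low in A/J. Their gene bodies lie 71.0 kb apart on chromosome 10. Sult3a1 was at 18.7, 21.1 and 30.3 CPM in A/J and from 55.7 to 1986 in the other libraries, with a median of 644. Sult3a2 was at 0.868, 1.73 and 1.86 CPM against 3.79 to 904. C57BL/6J was the next strain for both, at 70.9 ± 14.7 and 4.02 ± 0.239 CPM. Counts of both genes were not whole in 24 of the 27 libraries, so part of their level depends on how reads shared with similar genes were divided. The same limit holds for Lpl (22 of 27 libraries), Ccl27a (24), Trub1 (25), Acad9 (26) and Gm13443 (27).

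Akr1c19, an aldo-keto reductase gene, was at 6.90, 6.74 and 4.78 CPM against 11.1 to 90.7. Iah1, which encodes an esterase, was at 15.3, 10.4 and 9.72 CPM against 34.2 to 71.4, with the next strain, WSB/EiJ, 3.43-fold higher. Iah1 overlaps Adam17 on the opposite strand, and the labels' protocol names no strand-specific kit. The glutathione transferase gene Gstt3, the mitochondrial carrier gene Slc25a48 and the DNA repair gene Paxx were set apart as well, and their A/J means were lower than the next strain's by 1.94-, 2.05- and 1.81-fold. Ube2u held 0 counts in all 3 A/J libraries, and the CAST/EiJ mean, the lowest of the others, set a bound of at least 5.9-fold lower against a floor of 3 counts per library. Ube2u, Gpd2, Gm13443, Qprt, Mbnl2, Acad9 and Ccl27a were named after their values were seen.

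Many genes of amino acid breakdown were lower in A/J. Of 37 genes of the urea cycle and amino acid catabolism, 24 were called lower in A/J and 1 higher, with a median log2 change of -0.53 against 0.02 for all genes. Enzymes of the urea cycle itself were among the lower genes. Glutamine, methionine, tyrosine and histidine breakdown were represented too.

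Cps1, the mitochondrial entry enzyme of the cycle, was at 3899, 2576 and 3587 CPM in A/J. The other libraries ran from 2583 to 10044, and 3 of 24 were at or below the highest A/J library. Its log2 change was -0.71 ± 0.19 (SE, adjusted p = 0.00649); without A/J replicate 2 it was -0.55 (adjusted p = 0.0728). Ass1, which joins citrulline to aspartate, was at 1341, 1212 and 1022 CPM against a median of 2806, and just 1 other library fell within the A/J range. Asl, which splits argininosuccinate, was set apart at 160, 171 and 160 CPM against 237 to 715. Otc, the second enzyme, fell by 0.53 on the log2 scale (SE 0.14, adjusted p = 0.00845), a call lost without A/J replicate 2 (adjusted p = 0.0553) or replicate 3 (0.138). Nags, which makes the activator of Cps1, had a log2 change of -0.47 ± 0.10 (SE).

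Beyond the cycle, Gls2, the liver glutaminase, was at 177, 159 and 124 CPM in A/J against 266 to 684, with a log2 change of -1.41 ± 0.14 (SE, adjusted p = 4.05e-08). Gls2 overlaps Spryd4 on the opposite strand. Gnmt, the methyltransferase that disposes of excess S-adenosylmethionine, was at 306, 339 and 278 CPM against 557 to 1856. Hpd, an enzyme of tyrosine breakdown, was at 960, 962 and 795 CPM against 1016 to 2242. Both were set apart, and Cth, the last enzyme of cysteine synthesis from methionine, had a log2 change of -1.33 ± 0.20 (SE). Ahcy was the exception with 2.12 ± 0.11 (SE). Its mean level was 888 CPM in A/J, between 1168 and 1341 in C57BL/6J, DBA/2J and PWK/PhJ, 233 in CAST/EiJ, and between 45.2 and 55.8 in 129S1/SvImJ, NOD/ShiLtJ, NZO/HlLtJ and WSB/EiJ. Its counts were not whole in any of the 27 libraries.

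**Figure D2:**
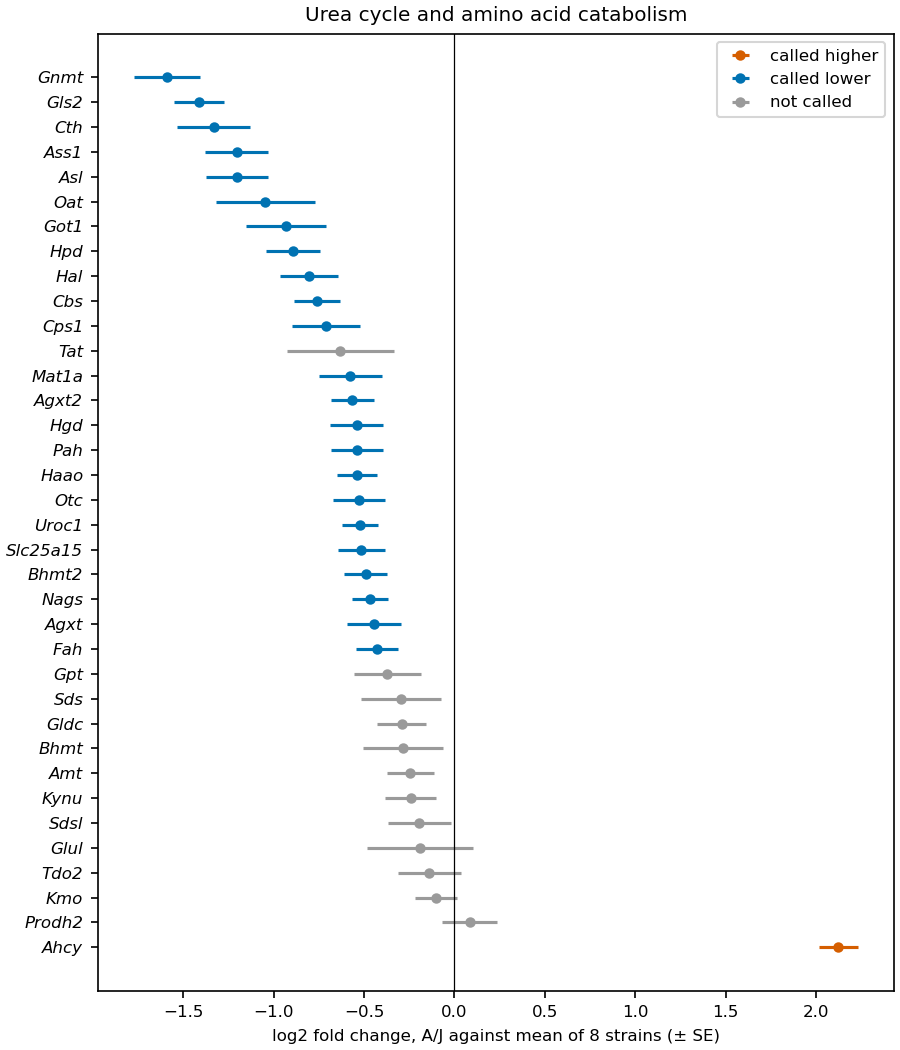
Log2 fold change of 36 of the 37 genes of the urea cycle and amino acid catabolism in A/J against the mean of the 8 other strains, with its SE, coloured by the call. All called genes drawn except Ahcy lie left of 0.

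The count of lower genes in this list was 27, 20 and 17 without A/J replicates 1, 2 and 3. It was 32 with library totals and 16 with macrophage and endothelial marker means as covariates. Tat, Tdo2, Glul and 9 other members were not called. Of 15 periportal genes, which overlap this list, 8 were lower and 3 higher, while of 15 pericentral genes 2 were lower and 4 higher. Without A/J replicate 3 the periportal counts were 6 and 0 and the pericentral counts 1 and 2, and with library totals 9 and 0, and 3 and 1. The difference between the zones was not tested.

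Several abundant transcripts of secreted plasma proteins were higher in A/J. Alb, the albumin transcript, took 19.3%, 17.7% and 19.2% of all counts in the A/J libraries and 9.17% to 16.4% (median 11.5%) in the others. Each A/J library therefore gave albumin a larger share than any other library. In CPM, 1 of the other libraries exceeded the lowest A/J value, and the log2 change was 0.98 ± 0.16 (SE, adjusted p = 7.43e-05). Trf, the transferrin gene, was at 39871, 38564 and 51074 CPM against 15549 to 35556. Apoa1, the main protein of high-density lipoprotein, was at 12829, 9924 and 15002 CPM against 3093 to 9665. Both were set apart. Apob, the structural protein of very low-density lipoprotein, was at 9937, 8633 and 13179 CPM against a median of 5708, with 3 other libraries in the A/J range. Serpina1c, an alpha-1-antitrypsin gene, was set apart at 11931 ± 3425 CPM (SD, n = 3) against 8161 ± 642 in WSB/EiJ, but its counts were not whole in any library, and this multicopy family shares reads. Ahsg, the fetuin-A gene, had a log2 change of 0.81 ± 0.15 (SE).

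**Figure D3:**
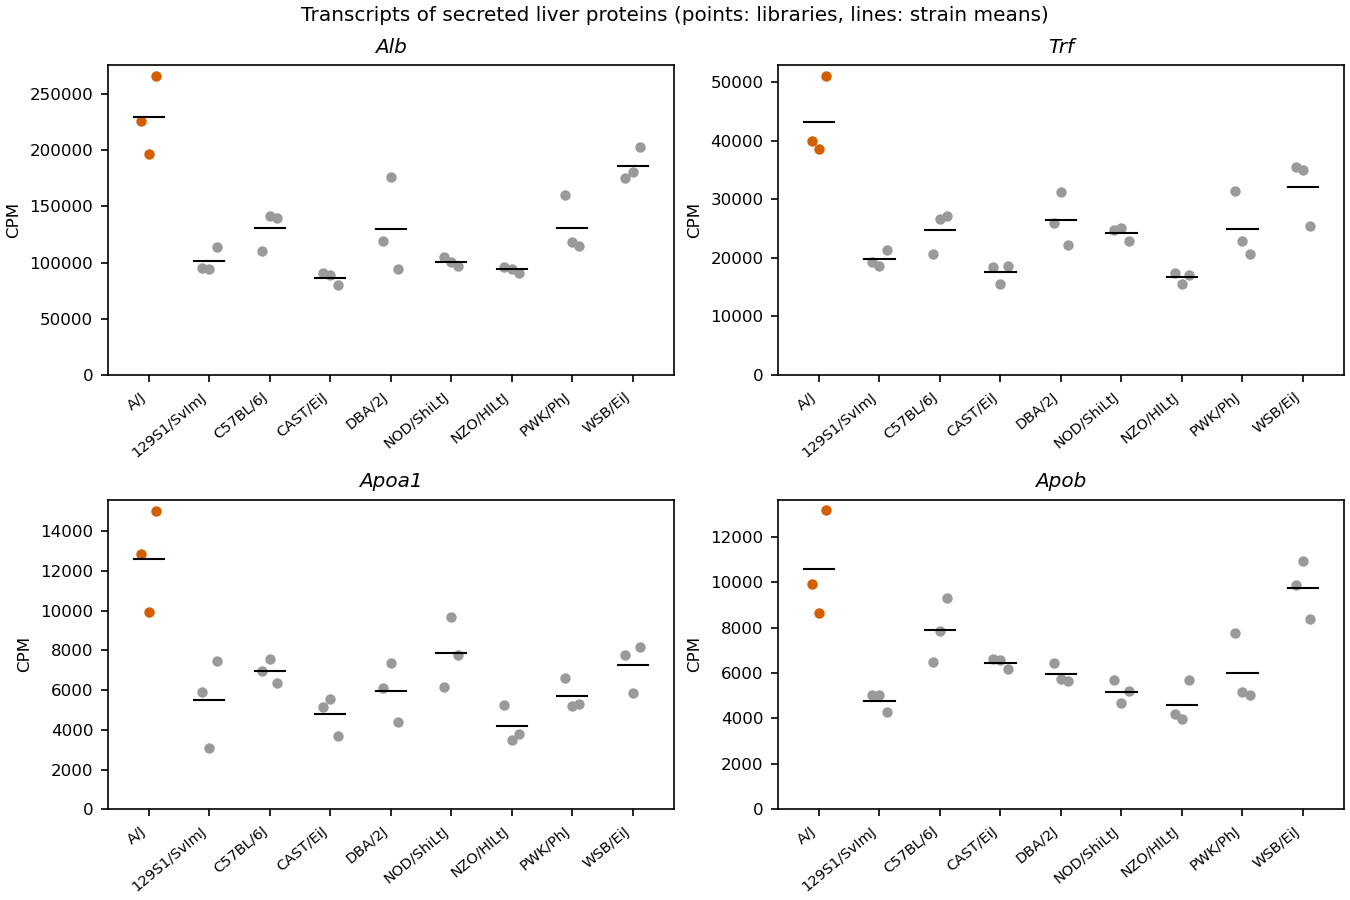
CPM of Alb, Trf, Apoa1 and Apob in each library by strain, A/J in orange, with a line at each strain mean; axes start at 0. A/J has the highest mean for each gene, and WSB/EiJ is next for Alb, Trf and Apob.

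Of the 14 hepatocyte markers tested, 11 were higher and 2 lower (Cps1 and Hnf4a), and with library totals 8 and 2. The Hnf4a call was lost without any 1 of the A/J libraries, and without replicate 2 no marker was called lower. Several of these markers are the plasma protein transcripts described above, so the counts do not measure the share of hepatocytes. Of 36 complement genes 19 were higher and 3 lower (9 and 3 without A/J replicate 3, 12 and 5 with library totals). C8a, a subunit of the membrane attack complex, had a log2 change of 1.16 ± 0.19 (SE), and C4bp, an inhibitor of the classical pathway, 0.86 ± 0.13. Hc and Cfhr2 were among the lower members, and the Cfhr2 call was lost without A/J replicate 1 or 2. C1s2 and C1rb, copies of the C1 protease genes, were at 45.5 and 21.98 CPM in A/J and at 0.117 to 0.235 in NZO/HlLtJ, 129S1/SvImJ and C57BL/6J, but WSB/EiJ was at 49.4 and 25.5 CPM. Of 30 coagulation genes 10 were higher and 1, F12, lower (4 and 1 without A/J replicate 3, 6 and 2 with library totals). Of 24 acute phase genes 10 were higher and 2 lower. The counts were 3 and 2 without A/J replicate 3, 6 and 1 without replicate 2, and 5 and 2 with library totals. Leading the higher ones was Apcs, the serum amyloid P gene, at 575, 765 and 889 CPM against 42.1 to 709.

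**Figure D4:**
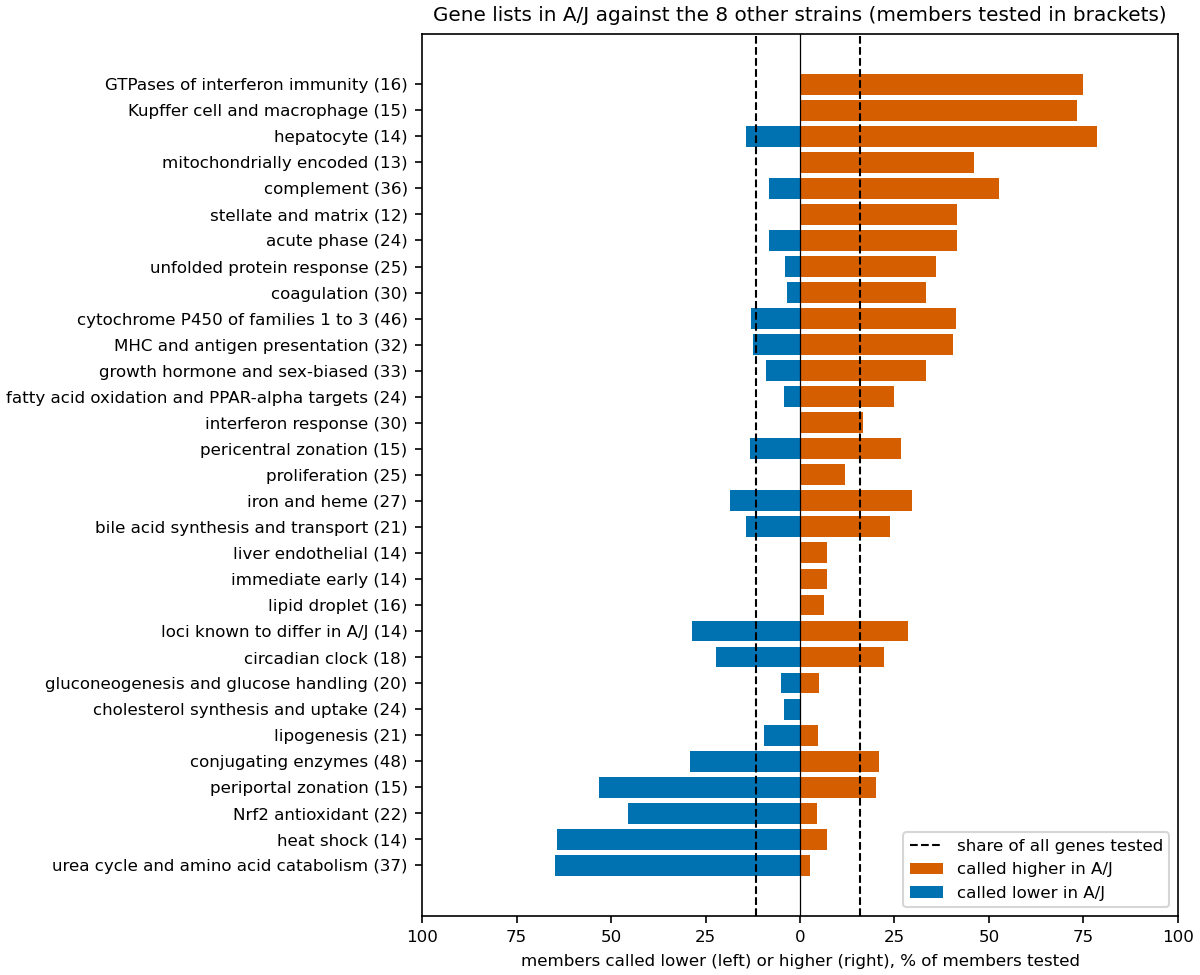
Percentage of tested members called higher (right, orange) or lower (left, blue) in A/J for each gene list with at least 10 members tested; dashed lines mark the shares over all genes, 15.9% and 11.6%. Interferon GTPases, Kupffer markers and hepatocyte markers have the largest shares of higher members, and amino acid catabolism and heat shock the largest shares of lower ones.

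Immune GTPases of the Gbp and Irg families, which interferon-gamma induces and which attack the vacuoles of intracellular parasites, were often higher, and 1 A/J library carried much of that. Of 16 tested, 12 were called higher and the other 4 were not called (median log2 change 1.51). All 12 were highest in A/J replicate 2. In 8 of the 12, replicate 2 was more than 2-fold above both other A/J libraries. Tgtp1 was at 2.01, 61.7 and 2.92 CPM, so replicates 1 and 3 lay below the median of the other 24 libraries (3.92). Gbp2b was at 2.74, 22.7 and 2.96 CPM against 0.181 to 3.16, and Gbp2 at 4.16, 22.98 and 3.32 against 0.464 to 7.76. Without replicate 2, 5 of 16 were called: Gbp11, Gbp4, Gbp8, Gbp7 and Iigp1.

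Gbp11 stood out from that group, at 113, 207 and 99.3 CPM in A/J. The other libraries ran from 0.631 to 104 with a median of 7.23, and only DBA/2J, at a mean of 91.5, came close. Without replicate 2 its log2 change was 3.31 ± 0.40 (SE, adjusted p = 2.92e-06). Igtp was at 67.5, 291 and 87.1 CPM against 15.9 to 138, and its adjusted p was 0.131 without replicate 2. Iigp1 was at 229, 353 and 133 CPM against a median of 187, with CAST/EiJ low at a mean of 0.507 CPM. Against the 5 classical strains its log2 change was 0.10 (adjusted p = 0.75). Of 30 type I interferon response genes 5 were higher, Oas3, Oas2, Ifi27l2a, Zbp1 and Usp18, with a median log2 change of 0.13 over the list. That share, 16.7%, is close to the 15.9% of all tested genes. All 5 were highest in replicate 2, and none of the 30 was called higher without it. With library totals 2 were higher and 3 lower, and with the macrophage and endothelial covariates none was called.

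**Figure D5:**
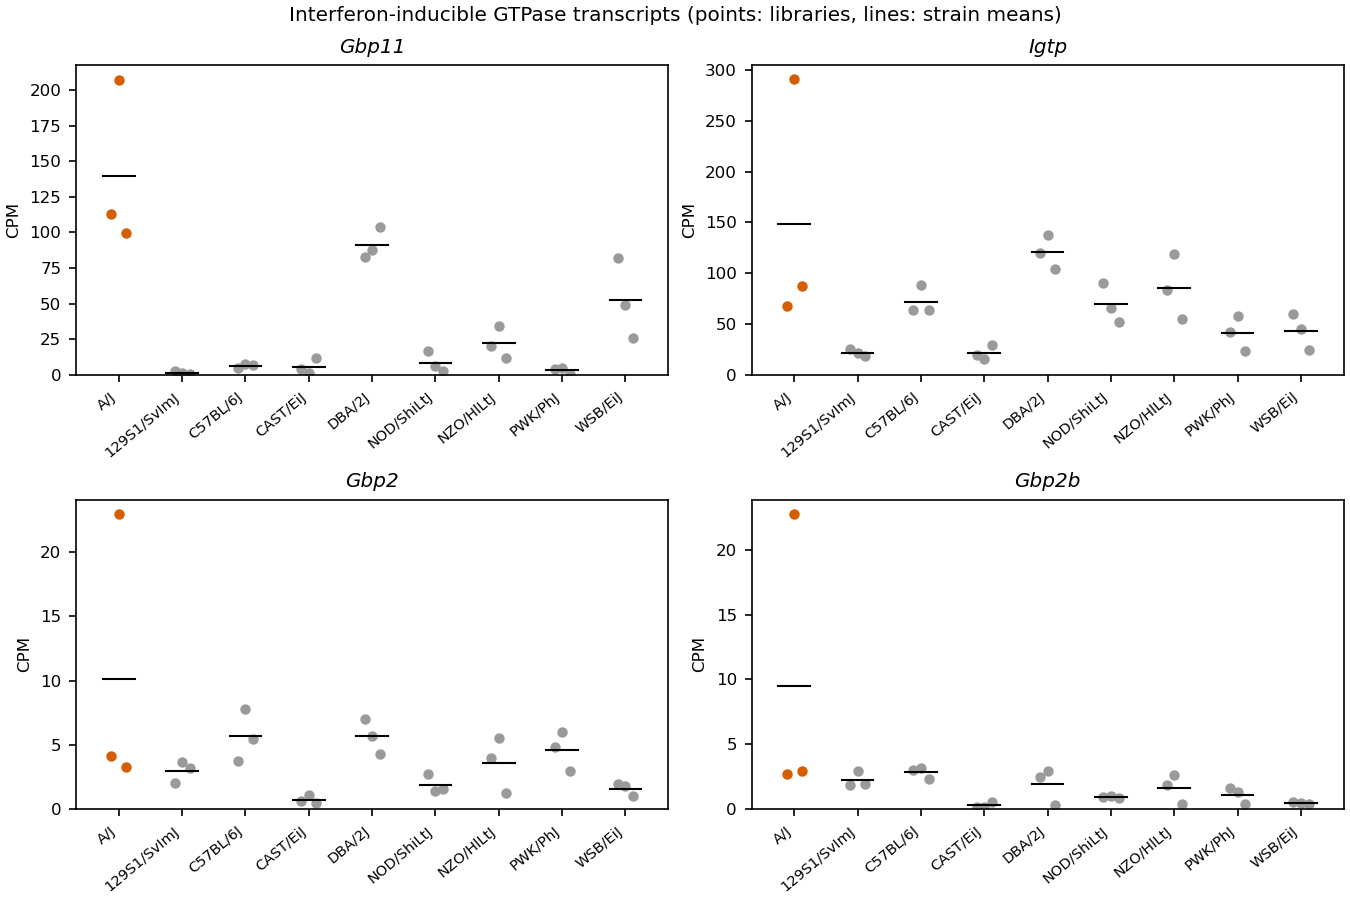
CPM of 4 interferon-inducible GTPase genes in each library by strain, A/J in orange, with a line at each strain mean; axes start at 0. A/J replicate 2 is the highest point in all 4 panels, while for Gbp2 and Gbp2b the other A/J libraries lie among the other strains.

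The promoters of the GTPase genes are shown as a description. The list was drawn up of interferon-inducible genes, so motif counts describe the list and not A/J or its replicate 2. RefSeq (GRCm38.p6) gave a start site for 10 of the 16 tested genes. The core of the interferon-stimulated response element, GAAA followed by any 2 bases and GAAA again, occurred on either strand within 250 bases before the start in 9 of 10, against 2.98% of all 32851 promoters in the table. Of the 8 called genes with a start site, 7 held it. The gamma-activated site TTCNNNGAA occurred in 5 of 10, against 7.02%. Both strands were searched, and neither search masked overlaps with other motifs. A match describes letters, not a bound site. Capitals mark both motifs in the 250 bases before the start, 5′ to 3′. Igtp and Gbp7 hold both, and Gbp2 holds the first alone. They lie at chr11:58199306-58199555, chr3:142530086-142530335 and chr3:142620413-142620662, all on the plus strand.
Igtp: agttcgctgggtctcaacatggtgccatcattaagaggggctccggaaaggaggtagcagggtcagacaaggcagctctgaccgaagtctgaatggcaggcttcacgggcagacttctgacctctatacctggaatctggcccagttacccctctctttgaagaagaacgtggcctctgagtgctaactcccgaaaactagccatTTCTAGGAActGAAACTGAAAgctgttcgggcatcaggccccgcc
Gbp7: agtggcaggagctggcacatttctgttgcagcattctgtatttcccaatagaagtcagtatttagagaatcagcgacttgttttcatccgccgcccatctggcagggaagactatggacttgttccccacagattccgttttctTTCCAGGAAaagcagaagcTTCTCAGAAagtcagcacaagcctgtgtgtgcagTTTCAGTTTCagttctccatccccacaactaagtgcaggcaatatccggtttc
Gbp2: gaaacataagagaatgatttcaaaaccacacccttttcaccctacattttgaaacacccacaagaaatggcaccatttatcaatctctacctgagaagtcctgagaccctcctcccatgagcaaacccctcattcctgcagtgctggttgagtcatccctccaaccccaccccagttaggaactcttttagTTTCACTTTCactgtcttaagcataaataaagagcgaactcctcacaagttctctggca

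Macrophage markers moved with the same library. Of 15 Kupffer cell and macrophage genes 11 were higher and the other 4 were not called, and all 11 were highest in A/J replicate 2; without it 2 were called, without replicate 3, 4, and with library totals 6. Their summed level was 180, 374 and 260 CPM in A/J and from 44.2 to 509 (median 115) in the others, so A/J lay within the range. Marco, a macrophage scavenger receptor, was at 3.38, 9.08 and 2.96 CPM against a median of 0.680. Fewer cells of a type and less RNA per cell cannot be told apart in bulk RNA. With macrophage and endothelial marker means as covariates, 5 of the 16 GTPases were higher. The part of macrophages in the GTPase values was not tested. Of 12 stellate cell and matrix markers 5 were higher, all 5 highest in replicate 3, and 2 were called without that library. The summed level was highest in replicate 3 at 112 CPM, above the 92.3 of the highest other library. Of 14 endothelial markers 1 was higher (7.14%, below the 15.9% of all genes), and 4 lymphocyte markers gave no call. Krt7, Krt19, Cldn7 and Cftr, all cholangiocyte markers, held 0 counts in A/J.

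In the major histocompatibility complex and antigen presentation list, 13 of 32 genes were higher and 4 lower, and 13 of the 17 called genes were highest in A/J replicate 2. Without that library 6 were higher and 4 lower, and the median log2 change fell from 0.52 to 0.02. The counts were 5 and 7 with library totals, and 4 and 6 with the marker covariates. H2-T10 was at 36.2, 67.0 and 44.1 CPM against 1.41 to 45.1, with NOD/ShiLtJ near it. H2-Q2 was at 0.228, 0.0936 and 0.0790 CPM against a highest value of 42.05, but 129S1/SvImJ, C57BL/6J and CAST/EiJ were also low, with means of 0.154, 0.305 and 0.446 CPM. Members of this family share reads, and 10 of the 32 had counts that were not whole in any library.

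Of 14 heat shock and chaperone genes 9 were lower and 1, Hsf1, higher (median log2 change -0.76). The Hsf1 call was lost without A/J replicate 1 or 3 and with library totals. Without A/J replicates 1, 2 and 3 in turn, 5, 5 and 4 were lower, and with the marker covariates 3. Hspa4l, an Hsp110-family chaperone, had a log2 change of -1.23 ± 0.22 (SE), and Hspe1, the mitochondrial co-chaperone, -0.79 ± 0.18. The inducible Hspa1b was at 1.55, 2.81 and 2.96 CPM against 1.27 to 114, a range that WSB/EiJ, DBA/2J and PWK/PhJ spread upward with means of 80.7, 42.5 and 36.6. Of 14 immediate early genes, which respond to cell isolation, only Myc was called (7.14%, below the 15.9% of all genes). Its A/J values of 8.18, 2.48 and 1.98 CPM show that replicate 1 alone was high. Of 22 targets of Nrf2, the transcription factor of the antioxidant response, 10 were lower and 1 higher. The counts were 7 and 1 without A/J replicate 3, and 16 and 1 with library totals. Gsr, which regenerates glutathione, had a log2 change of -0.72 ± 0.15 (SE), and Prdx6, a peroxidase, was at 230, 197 and 154 CPM against a median of 335. Hmox1, the heme oxygenase, was the higher one at 12.8, 16.0 and 10.8 CPM against a median of 6.15, with C57BL/6J and PWK/PhJ near it at means of 11.3 and 10.4.

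Protein folding in the endoplasmic reticulum was covered by another list. Of 25 genes of the unfolded protein response 9 were higher and 1, Atf4, lower. Pdia6, a protein disulphide isomerase, had a log2 change of 0.88, and Xbp1, a transcription factor of the response, 0.58. Without A/J replicate 3 just 2 were called, and without replicate 1 3 were higher and 1 lower. With library totals 2 were higher and 1 lower. The difference between the lists was not tested.

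Of 24 genes of fatty acid oxidation and other targets of PPAR-alpha, the receptor that drives fasting fat oxidation, 6 were higher and 1 lower. Without A/J replicate 1 the counts were 3 and 3, and with library totals 4 and 3. Cpt1a, which admits fatty acids to mitochondria, was at 496, 617 and 557 CPM against a median of 265, with 1 other library in the A/J range. Cyp4a14 was at 2056, 2104 and 1986 CPM against a median of 648, a call lost against the 5 classical strains. Of 21 lipogenesis genes, Me1 and Acly were lower (9.52%) and Elovl5 higher (4.76%), both below the shares of all genes (11.6% and 15.9%). With library totals 10 were lower and 1 higher. The Acly call was lost without A/J replicate 2, and without replicate 3, 4 genes were lower. Of 24 cholesterol genes Pmvk alone was called, lower (4.17%, below the 11.6% of all genes). Its call was lost without A/J replicate 2 (adjusted p = 0.232) or replicate 3 (0.168), among other settings. With library totals 5 genes of this list were lower. Of 16 lipid droplet genes Fitm2 alone was called, higher (6.25%, below the 15.9% of all genes). It was at 65.9, 69.9 and 83.9 CPM against a median of 35.04, a level shared with C57BL/6J at a mean of 71.8.

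Of 46 cytochrome P450 genes of families 1 to 3, 19 were higher and 6 lower, and with library totals 11 and 7 with a median log2 change of -0.04. Of the 25 called, 18 were highest in A/J replicate 3, and without that library 11 were higher and 3 lower. Without replicate 1, 17 were higher and 2 lower. Cyp2c23 was at 17.5, 17.9 and 14.5 CPM in A/J, with DBA/2J, NOD/ShiLtJ and NZO/HlLtJ between 11.8 and 25.6 and the other 5 strains between 336 and 828. Cyp2a22 was at 222, 294 and 227 CPM, a level shared with C57BL/6J at 213 and WSB/EiJ at 281. Cyp3a41a, a female-predominant gene, was at 487, 1274 and 1174 CPM against a median of 2669, and its call was lost without any 1 of the A/J libraries. Of 48 conjugating enzymes 10 were higher and 14 lower. The balance turned to 12 higher and 9 lower without A/J replicate 2, and was 5 and 20 with library totals, 8 and 8 without replicate 3, and 9 and 8 with the marker covariates. Cyp7b1, an oxysterol hydroxylase, was at 33.1, 33.8 and 51.0 CPM, and its call was lost in a fit without CAST/EiJ and PWK/PhJ, whose means were 373 and 864. The Mup19 estimate (-2.48 ± 0.77 SE) rested on A/J values of 1.96, 12.4 and 0.0790 CPM within a range of 0 to 11081. Its call was lost in 5 of 38 settings, including without A/J replicate 1 or 3 and against the 5 classical strains, and the estimates ran from -4.90 to -0.98.

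Of 33 growth hormone-dependent and sex-biased genes 11 were higher and 3 lower, with library totals 5 and 5, and without A/J replicate 3, 6 and 2. Over all 14482 genes, 15.9% were higher and 11.6% lower, against 1008 higher and 4100 lower genes with library totals. Of the same genes, 2118 were higher and 1735 lower without A/J replicate 1, and 1745 and 1164 without replicate 2. Without replicate 3 they were 1226 and 728, and with the marker covariates 1405 and 1079. Each count is to be read against its own setting. Of 27 iron and heme genes 8 were higher and 5 lower, with library totals 2 and 8, and without A/J replicate 3, 4 and 4. Of 21 bile acid genes 5 were higher (23.8%) and 3 lower (14.3%), with library totals 3 and 7, and without A/J replicate 3, 3 and 1. Of 18 circadian clock genes 4 were higher and 4 lower (22.2% each); without A/J replicate 2 just 2 were called, both lower, and without replicate 3, 2 were higher and 1 lower. Of 20 genes of glucose handling 1 was higher and 1 lower, both below the shares of all genes, while with library totals, where most calls over all genes were lower, the 9 called were all lower. Of 25 proliferation genes 3 were higher, also below that share, and with library totals the 3 called were all lower. Without A/J replicates 1, 2 and 3 in turn, 2, 1 and 2 were higher. Of 13 mitochondrially encoded genes 6 were higher, and without A/J replicate 3, 3. In the short marker lists 1 of 3 neutrophil and 1 of 5 erythroid genes was higher, and 1 of 3 cholangiocyte genes was lower. Without A/J replicate 2 or replicate 3 the neutrophil and cholangiocyte lists gave no call, and the erythroid count stayed at 1.

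At loci known to differ in A/J, 14 of 20 listed genes were tested, 4 higher and 4 lower. Hc was at 302, 373 and 431 CPM against a median of 760, and the low level was shared with DBA/2J at 328 and NOD/ShiLtJ at 192. Dysf was at 0.365, 0.702 and 0.395 CPM against 0.178 to 8.74, with NZO/HlLtJ lower at 0.229. Glo1, the glyoxalase gene that is duplicated in some strains, was set apart at 1089, 714 and 1043 CPM against 167 to 713, so its lowest library barely exceeded the highest other one, and DBA/2J was next at 628 ± 59.1. Its counts were not whole in any library. C4a, the sex-limited C4 copy, had a log2 change of 1.58 ± 0.15 (SE), but CAST/EiJ and WSB/EiJ were higher at means of 206 and 161 CPM against 109 in A/J, and DBA/2J was near it at 99.1. Nnt was at 147, 148 and 155 CPM against 36.2 to 191, with C57BL/6J low at 38.9. Cs, the citrate synthase gene, was lower at 65.9 ± 7.26 CPM (SD, n = 3) against 90.1 in the mean of the 8 strains, and Ahr, the aryl hydrocarbon receptor gene, at 16.5 ± 3.41 against 24.1. The Cs call was lost without A/J replicate 2 or 3, and the Ahr call without replicate 1 or 2, with the marker covariates and without CAST/EiJ and PWK/PhJ. Slc11a1, which controls resistance to intracellular bacteria, had a log2 change of 0.80 ± 0.29 (adjusted p = 0.0457), which turned to -0.19 with the macrophage and endothelial covariates. Its call was lost in 16 of 38 settings, including library totals and without A/J replicate 2 or 3. Gusb, Nat2, C4b, Naip2, Naip5 and Naip6 were not called, with log2 changes of -0.20, -0.17, 0.44, -0.60, 0.97 and 0.49.

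Of the 3766 genes that were called but not set apart, at least 1 library of another strain overlapped the A/J range or lay beyond it. By strain means, C57BL/6J was nearest to A/J for 29.8%, WSB/EiJ for 23.2%, DBA/2J for 13.1% and NZO/HlLtJ for 3.93%. Over all tested genes, the mean correlation of A/J libraries with each other was 0.970, and with another strain it ran from 0.883 (CAST/EiJ) to 0.945 (DBA/2J). This correlation is across genes in libraries that share the same genes, and is a description only. Set-apart genes formed 45 neighbouring pairs within 1 Mb, of which 29 differed from the other strains in the same direction. Neither number was set against the spacing of all tested genes, so both are a description only.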

How the data were processed

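The labels describe polyA-selected TruSeq RNA libraries of female hepatocytes, and name no strand-specific kit. The authors deposited 1 table of estimated counts (43346 genes, 27 libraries), of which 11.1% of values were not whole at a tolerance of 1e-06. The submitters' processing notes name GRCm38, mm10, FastQC 0.11.5 and DESeq2; the aligner, the counter and whether reads were mapped to strain genomes are not given in the sources used here, and a gene's level can depend on that choice. Gene positions and strands are from GENCODE release M21 (GRCm38), and promoter sequences from RefSeq (GRCm38.p6).

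Counts were rounded and filtered with filterByExpr by strain (14482 genes kept), scaled with TMM factors and fitted across all 27 libraries with edgeR 4.0.16 (quasi-likelihood test, R 4.3.3). Contrasts set A/J against the mean of the 8 strain means of log expression, with Benjamini-Hochberg adjusted p under 0.05 as a call. The contrast is a mean of logs, so it can differ from a ratio of CPM means. P-values set the contrast against the spread between libraries of the same strain, estimated over all 27 libraries. Totals of 17015956 to 35078511 counts bound the counting precision of the libraries. A difference from each strain took the largest p of the 8 pairwise tests, adjusted over all genes. The code of the fit was also run on simulated counts, which checks the code and not these data.

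Named genes were the 12 higher and 12 lower set-apart genes with the widest gap on log2(CPM + 0.5) to the next strain (mean of at least 10 CPM), the 4 with the largest CPM difference each way, genes at known A/J loci, and up to 4 called genes per list with textbook members. Other genes were named after their values were seen. Some genes that the rule names are not reported here. The strain, the gene lists and the members were chosen with earlier results of these data known. Alternatives were DESeq2 1.42.0, other scalings and filters, a replicate block, fewer comparison strains, marker covariates, unrounded counts, leaving out each library and, added after seeing the data, removal of a GC trend.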

Additional observations from a re-analysis of the deposited data

How the results depend on the processing

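With macrophage and endothelial covariates 2484 genes were called, 1405 higher and 1079 lower, and 2 higher and 7 lower genes differed from each strain; Slc11a1 turned to -0.19 and Top2a to -0.14. Library totals gave 1008 higher and 4100 lower genes, 34 and 183 set apart, and 1 higher gene that differed from each strain. Against the 5 classical strains 253 higher and 271 lower genes were set apart, and 22 and 34 differed from each. Without CAST/EiJ and PWK/PhJ, 178 lower genes were set apart, and 16 higher and 20 lower differed from each of the strains left; fewer strains make both criteria easier to meet. DESeq2 gave 22 lower genes that differed from each strain. With the replicate block 3241 genes were called and 2 higher genes differed from each strain. Same-numbered libraries did not deviate together (mean correlation 0.01, from -0.293 to 0.275), so the numbers were not taken to pair them.

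Leaving out 1 library gave 1973 to 4633 called genes, 1244 to 2691 higher and 729 to 1942 lower. Set-apart genes then numbered 104 to 263 higher and 119 to 312 lower, and genes that differed from each strain 3 to 8 higher and 7 to 13 lower. The fewest calls came without A/J replicate 3, and the most set-apart genes without A/J replicate 1. Of the 223 set-apart genes, 126 remained with library totals and 127 with the GC trend removed. The 24 set-apart genes with the widest gaps kept their call and direction in all 38 alternatives, as did 78 of the 129 called genes among the 135 named by rule. That call is the contrast with the 8 strains, not the set-apart criterion, and the 24 were picked for their wide gaps. The cause of each other change was not tested.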
